A study of Rattus norvegicus with 12 samples.

Results

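Gene expression 2 h after the end of a 2 h depolarization was compared between 3 depolarized and 3 control arrays, which are 6 of the 12 arrays of a study of rat ventral midbrain cultures. The comparison covered all 15866 probe sets that are not array controls, which carry 10411 different gene symbols. A probe set is a group of short probes on a single-colour Affymetrix array that reports on 1 transcript or a few related ones, and its value is given in log2 units, so that a difference of 1 is a 2-fold change.

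The cells came from the ventral midbrain of E12 embryos of CD1 rats, as the labels name the strain. They were plated without serum and expanded for 6 days with bFGF (20 ng/ml) and SHH (50 ng/ml), after which both factors were withdrawn for 3 days. On day 9 the depolarized cultures received 56 mM KCl for 2 h and were then returned to fresh medium for 2 h before collection, and the control cultures were held in control medium for the same total time. Every culture of the comparison had been expanded with both factors, and no control had received the KCl for any time. The other 6 arrays hold the same treatment and control with only 30 min in fresh medium. Litters of 4 dams were combined and divided over 3 separately treated groups, and each array received RNA pooled from duplicate cultures. The errors and p-values therefore measure the spread between pooled cultures and not between animals.

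Raised extracellular potassium opens voltage-gated calcium channels, and calcium entry activates kinases that phosphorylate transcription factors already present in the cell, such as CREB and the ternary complex factors that bind with SRF. Their first targets, the immediate-early genes, encode further transcription factors of the AP-1 and EGR families, together with the phosphatases and corepressors that switch the signal off. Later genes encode secreted peptides, synaptic proteins and enzymes, so that a collection well after the stimulus holds both the remainder of the first wave and the genes that follow it.

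The arrays of each 2 h group correlated closely, and treatment was the main axis among them. Array medians lay between 8.39 and 8.43 in controls and between 8.36 and 8.39 in depolarized cultures. The first principal component of the 6 arrays held 69.3% of the variance and placed the controls between -17.4 and -13.8 and the depolarized arrays between 12.9 and 20.3. The lowest of the depolarized scores belonged to replicate 5. The second component, with 13.2%, put depolarized replicate 5 (-10.6) beside control replicate 6 (-9.38), away from the other 4 arrays (3.26 to 6.57). Controls collected at 2 h also differed from those collected at 30 min in 5604 probe sets (35.3% of those tested), and for some genes the position against all 6 controls is given as well. In bulk RNA, fewer cells of a type and less RNA per cell cannot be told apart.

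At 2 h, 4001 of 15866 probe sets (25.2%) passed an adjusted p of 0.05 in limma, a linear model with a moderated variance, with 1509 higher (9.51%) and 2492 lower (15.7%) after depolarization. Counts over gene lists below are to be read against these shares of all probe sets. With each array centred on its own median the split was 2014 higher against 1903 lower, so the excess of falls over rises depends on the scaling. Median differences over gene lists are given below in the deposited scale, and those of the neurotrophic, endoplasmic reticulum, sterol, glutamate receptor, calcium pump, proteasome and ID, HES and Notch lists were slightly below 0 in it and slightly above 0 after centring. Rises and falls differed in size. A change of at least 2-fold was seen in 103 of the rises (0.649% of probe sets tested) and in 3 of the falls (0.0189%). The median change was 0.35 among the rises, and the falls had a median of -0.32. The genes with rises of at least 2-fold were short, with a median genomic length of 9.45 kb (quartiles 4.99 and 22.4 kb, 76 genes), against 22.07 kb over all 10378 measured genes with a length. Genes that fell by at least 0.5 were long, with a median of 43.1 kb (quartiles 18.4 and 114 kb, 274 genes). Of the 103 probe sets with 2-fold rises, 18 have no single gene symbol in the array annotation and remain unnamed here, the largest of them with a difference of 3.13.

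**Figure D1:**
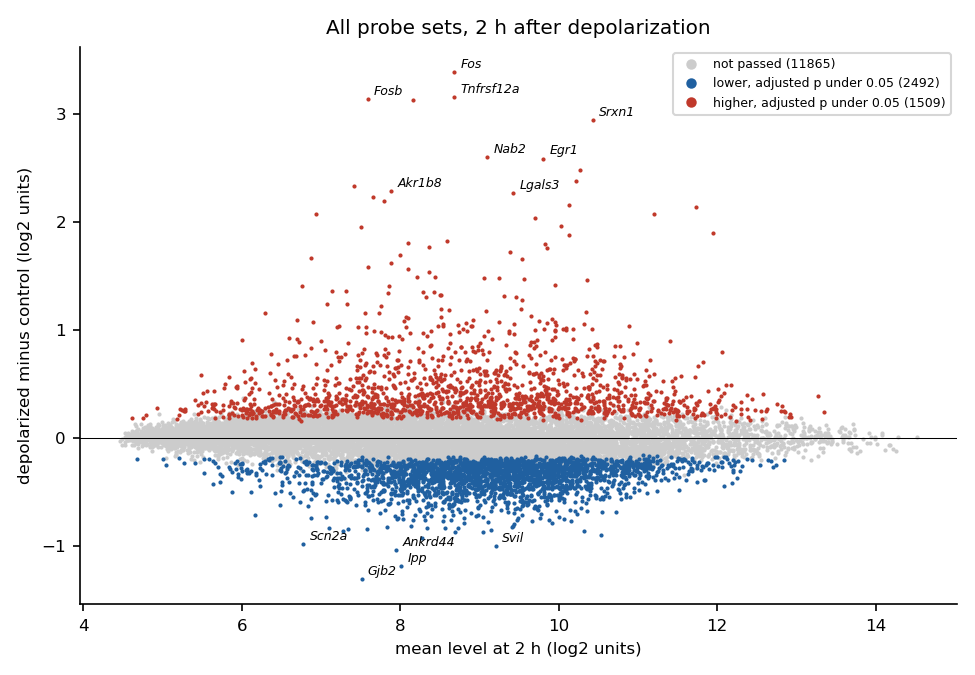
Difference between depolarized and control cultures at 2 h (log2 units) against the mean level over the 6 arrays collected at 2 h (log2 units), 1 point per probe set. Red points were higher (1509) and blue points lower (2492) at an adjusted p of 0.05. The largest rises reach 3.39 for Fos, while the lowest fall is that of Gjb2 at -1.30.

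Transcription factors of the AP-1 and EGR families were among the 20 largest rises, with Fos first. Fos, the inducible partner of JUN proteins in AP-1, was at 6.97, 7.08 and 6.90 in control replicates 4 to 6 and at 10.37, 10.42 and 10.33 in the depolarized ones. All 3 depolarized arrays were within 0.1 of each other and far above the controls. The difference of 3.39 (SE 0.08, adjusted p = 3.32e-13 by limma) is a 10.5-fold rise, although a second Fos probe set showed none (0.05, adjusted p = 0.61). Fosb, a FOS protein whose splice forms accumulate on repeated stimulation, was at 5.81, 6.28 and 5.97 in controls and at 8.89, 9.38 and 9.21 in depolarized cultures, an 8.82-fold rise. For Fosb, replicate 5 was the highest depolarized array. Fosl1, which encodes the FOS relative FRA1, rose by 1.54 (SE 0.15). Of 12 measured genes for AP-1 and small MAF proteins 9 rose and 0 fell, with a median difference of 0.54 against a median of -0.00 over all probe sets. Without depolarized replicate 5 the rises were 10, and without any other 1 of the 6 arrays they were 8.

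Egr1, a zinc finger activator and standard marker of neuronal activation, was at 8.60, 8.51 and 8.42 in controls and at 11.53, 10.47 and 11.29 in depolarized cultures. Egr2, its relative, was at 6.44, 6.63 and 6.57 against 9.45, 7.80 and 9.09. In both genes replicate 5 was the lowest depolarized array and still above every control. The rises were 2.59 for Egr1 (SE 0.19, adjusted p = 2.17e-07 by limma) and 2.24 for Egr2 (SE 0.27, adjusted p = 2.71e-05). A second Egr2 probe set differed by 0.49 (adjusted p = 0.0185). Nab2, a corepressor that binds EGR proteins and limits them, was at 7.83, 7.68 and 7.86 in controls and at 10.89, 9.75 and 10.55 after depolarization, a 6.09-fold rise with the same order of arrays. Klf10, a Kruppel-like repressor, rose by 1.47 (SE 0.12) and the orphan nuclear receptor gene Nr4a1 by 1.23 (SE 0.13). Of 18 measured EGR, NR4A and KLF genes 15 rose and 0 fell, with a median of 0.83. When any 1 of the 6 arrays was left out, 13 or 14 rose.

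The rest of the 20 largest rises encode proteins of several kinds. Tnfrsf12a, the receptor for the cytokine TWEAK, was at 6.91, 7.19 and 7.20 in controls and at 10.70, 9.76 and 10.33 in depolarized cultures. Its difference of 3.16 (SE 0.16, adjusted p = 2.74e-09 by limma) was the nearest to that of Fos. Homer1, a scaffold of metabotropic glutamate receptors with a short activity-induced form, was at 6.70, 6.63 and 6.75 against 9.05, 8.64 and 8.99 at its most responsive probe set. The brightest Homer1 probe set differed by 0.26 (adjusted p = 0.0173), a call lost without depolarized replicate 4 or 6 (highest adjusted p = 0.0972). H1f2, which encodes a linker histone, was at 10.50, 10.73 and 10.76 in controls and at 12.80, 12.95 and 12.64 after depolarization, a 4.4-fold rise at a high level. Pvr, an adhesion receptor of the nectin family, rose by 1.81 (SE 0.18), the serine protease gene Prss23 by 1.83 (SE 0.14) and Tes, which encodes a focal adhesion protein, by 1.69 (SE 0.15). Controls of Prss23 were lower at 2 h than at 30 min (-1.08). Mgp, which encodes an inhibitor of matrix calcification, rose by 1.77 (SE 0.20) against its own controls, but those controls were 1.97 lower than the controls collected at 30 min, and the depolarized arrays overlapped the latter. Each of the other 19 genes lay above all 6 controls, as 7.48% of all probe sets did.

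**Figure D2:**
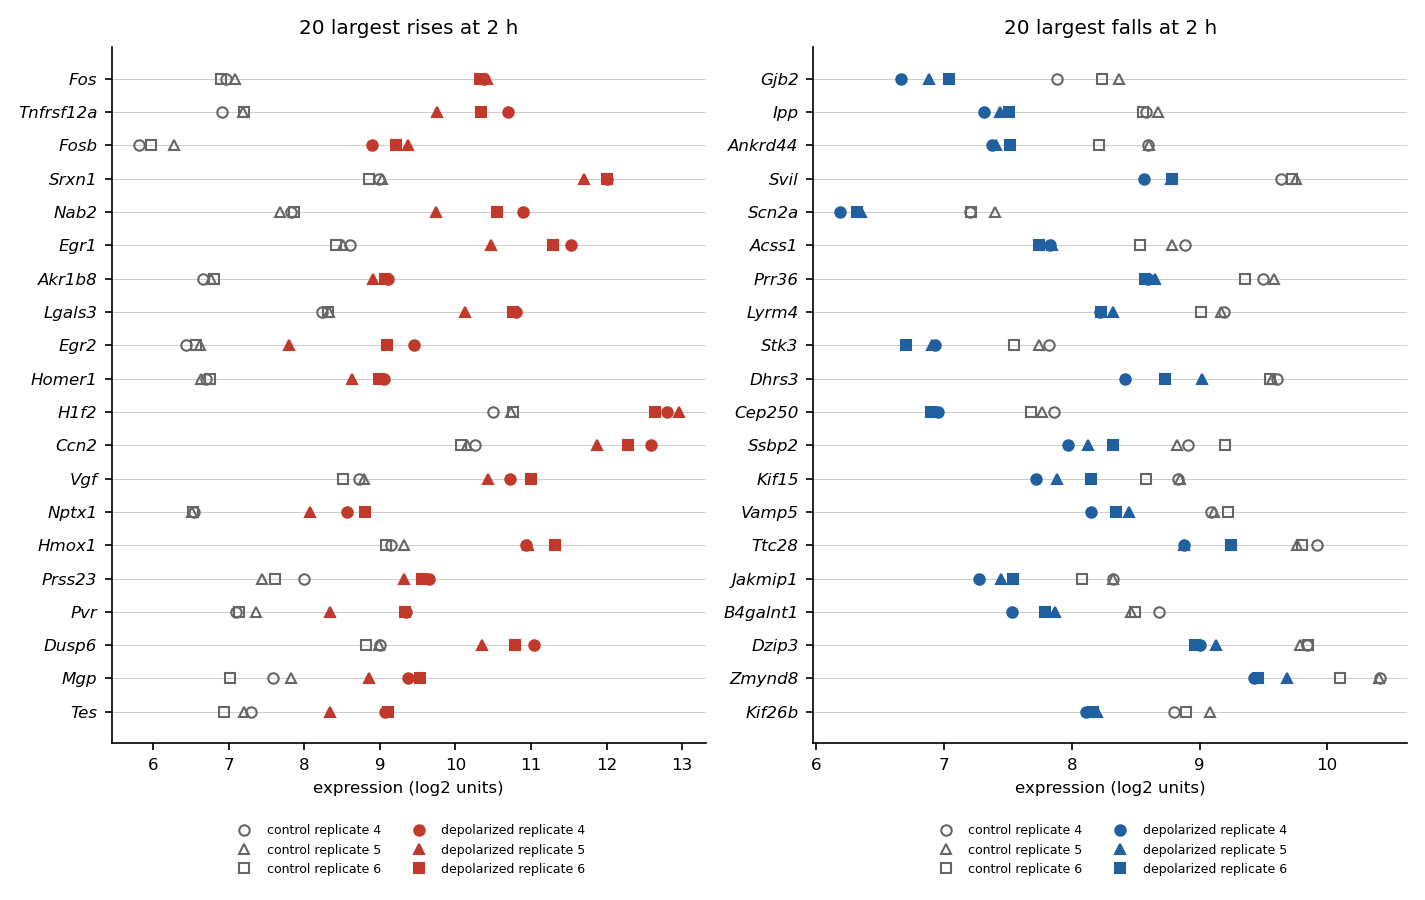
Expression (log2 units) of the 20 largest rises (left) and the 20 largest falls (right) in each of the 6 arrays collected at 2 h. Open grey symbols are controls and filled symbols depolarized cultures, with circles, triangles and squares for replicates 4, 5 and 6. No gene overlaps between the groups, which the choice of these genes required and 37.5% of all probe sets meet, and depolarized replicate 5 is the lowest of its group in 16 of the 20 rises.

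Promoter windows in RefSeq (build GRCr8, 250 bases before to 50 after the annotated start) were found for 14 of the 20 largest rises, and none was in the table for Fos, Lgals3, Nptx1, Hmox1, Prss23 and Mgp. Both strands were searched for the cAMP response element TGACGTCA and its shorter form TGACG, the AP-1 site TGANTCA, the antioxidant response element TGACNNNGC, the EGR site GCGTGGGCG and the CArG box of SRF. The short form lies within the full cAMP response element, and the antioxidant element can share its first letters with both. Full cAMP response elements were found in 1 of the 14 windows (1.83% of all 33469 windows), short forms in 5 (21.2%), AP-1 sites in 1 (7.33%), antioxidant elements in 2 (12.1%), EGR sites in 0 (0.544%) and CArG boxes in 2 (1.64%). The CArG boxes were those of Egr1, at 105 and 83 bases before the start, and of Egr2. The windows of Srxn1, Egr2 and Vgf are shown because each holds an AP-1 site, a CArG box or a full cAMP response element, in capitals together with any antioxidant element, and that of Egr1 is not shown. A match describes letters and is not evidence of a bound site. Srxn1 (chr3:161064562-161064861, plus strand) held AP-1 sites at 62 and 5 bases before the start. Egr2 (chr20:21054392-21054691, minus strand) held a CArG box at 83 bases before it and an antioxidant element, read on the other strand, at 70. Vgf (chr12:25276971-25277270, minus strand) held a full cAMP response element at 90 bases before the start and antioxidant elements at 61 before and 22 after it.
Srxn1: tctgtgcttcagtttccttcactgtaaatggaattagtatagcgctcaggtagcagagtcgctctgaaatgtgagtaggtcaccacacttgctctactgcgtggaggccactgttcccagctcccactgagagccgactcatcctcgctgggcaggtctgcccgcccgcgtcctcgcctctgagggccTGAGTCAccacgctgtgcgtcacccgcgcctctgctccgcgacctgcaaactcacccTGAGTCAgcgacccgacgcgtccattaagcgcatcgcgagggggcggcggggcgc
Egr2: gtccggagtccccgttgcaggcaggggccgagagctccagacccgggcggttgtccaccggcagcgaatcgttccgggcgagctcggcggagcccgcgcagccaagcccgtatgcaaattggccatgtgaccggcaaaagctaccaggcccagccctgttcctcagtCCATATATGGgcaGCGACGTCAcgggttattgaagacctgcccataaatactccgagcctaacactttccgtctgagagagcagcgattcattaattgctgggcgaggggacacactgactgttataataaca
Vgf: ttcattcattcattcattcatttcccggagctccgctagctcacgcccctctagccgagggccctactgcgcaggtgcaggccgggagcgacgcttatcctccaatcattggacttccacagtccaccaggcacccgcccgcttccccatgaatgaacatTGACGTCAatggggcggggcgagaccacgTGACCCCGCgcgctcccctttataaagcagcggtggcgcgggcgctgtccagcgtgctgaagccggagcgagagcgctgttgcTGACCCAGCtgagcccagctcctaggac

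Targets of NRF2, the transcription factor that induces antioxidant enzymes when its inhibitor KEAP1 is modified, were among the clearest rises at 2 h. Srxn1, the sulfiredoxin that restores oxidized peroxiredoxins and whose AP-1 sites are printed above, was at 8.98, 9.02 and 8.85 in controls and at 12.01, 11.70 and 12 after depolarization. Akr1b8, an aldo-keto reductase, was at 6.66, 6.76 and 6.80 against 9.11, 8.91 and 9.06, and Hmox1, the heme oxygenase, at 9.15, 9.32 and 9.09 against 10.93, 10.96 and 11.32. The 3 depolarized arrays agreed more closely here than for the EGR genes, and replicate 5 was not set apart in Hmox1. The differences were 2.95 for Srxn1 (SE 0.09, adjusted p = 4.59e-12 by limma), 2.29 for Akr1b8 (SE 0.07, adjusted p = 4.59e-12) and 1.89 for Hmox1 (SE 0.10, adjusted p = 5.25e-09). Gclc, the catalytic subunit of the enzyme that limits glutathione synthesis, rose by 0.76 (SE 0.07).

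Of 31 measured NRF2 targets 15 rose and 0 fell at 2 h, with a median of 0.22, and 1 fell without control replicate 6 or depolarized replicate 5. At 30 min 5 of them rose (10.8% of all probe sets rose then) and 3 fell, with a median of -0.03. The signed response at 2 h was higher than at 30 min in 13 of the 31 and lower in 0, where 6.16% of all probe sets had a higher response. Gclm, the modifier subunit paired with Gclc, differed by 0.68 at 2 h and 0.08 at 30 min, and Nqo1, a quinone reductase, by 0.65 and -0.26. These genes, and Nfe2l2, which encodes NRF2 itself and rose by 0.71, were chosen after their values were seen. Keap1, the inhibitor, did not pass at 2 h (-0.18). In 14 of the 31 genes the controls themselves were lower at 2 h than at 30 min, as in 17.2% of all probe sets, and 10 had depolarized arrays above all 6 controls. Metallothionein genes did not pass (Mt1 -0.22, Mt2A 0.15, Mt3 0.00).

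**Figure D3:**
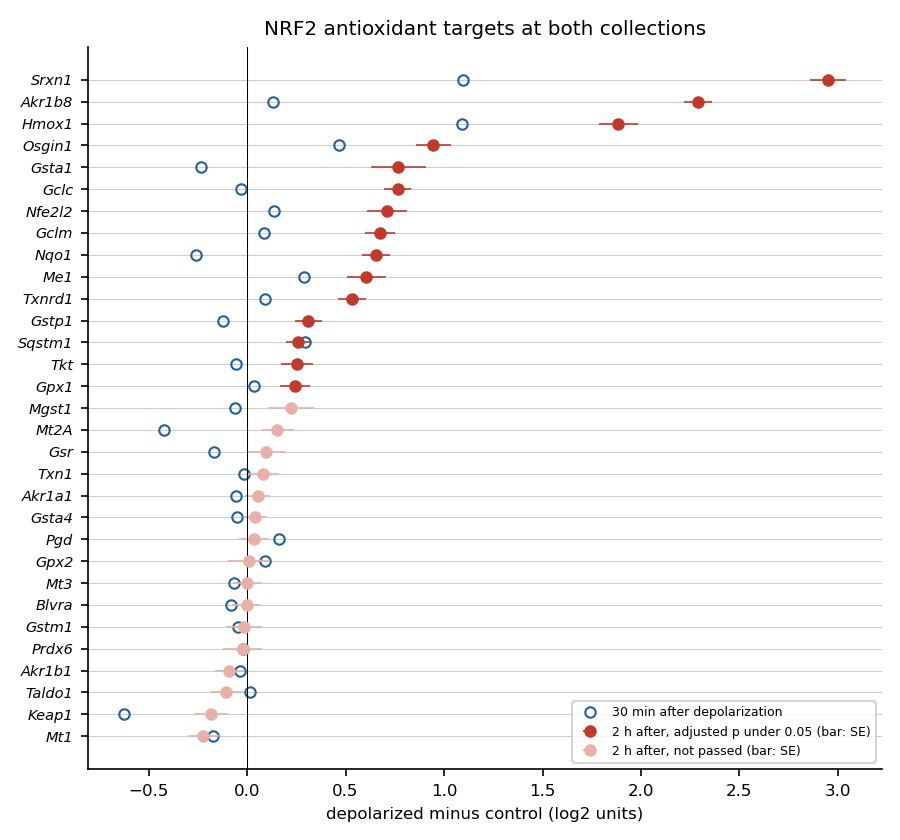
Difference between depolarized and control cultures (log2 units) for the 31 measured NRF2 targets. Filled points with SE bars are values at 2 h, dark where the adjusted p was under 0.05 (15 genes), and open points are values at 30 min. Most of the 15 stand to the right of their 30 min value, and Srxn1 reaches 2.95 against 1.10.

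Genes of tissue injury and regeneration rose in 15 of 27 measured members and fell in 0 (median 0.24). Without replicate 5 the rises were 16, and without control replicate 4 they were 12. Tnfrsf12a led them. Lgals3, which encodes the lectin galectin-3, was at 8.24, 8.33 and 8.32 in controls and at 10.80, 10.13 and 10.76 in depolarized cultures, a rise of 2.27 (SE 0.12, adjusted p = 6.89e-09 by limma). Ccn2, a matricellular growth factor gene, was at 10.26, 10.15 and 10.08 against 12.58, 11.87 and 12.28. Both genes had replicate 5 as the lowest depolarized array with no overlap between groups. Emp1, a membrane protein gene, rose by 1.48 (SE 0.11). In 13 of the 27 genes the controls were lower at 2 h than at 30 min, by 1.29 for Ccn2 (-1.29).

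Of 27 cytoskeletal targets of SRF and its cofactors the MRTFs, which sense free actin, 12 rose and 1 fell (median 0.21), with 2 falls without control replicate 6 or depolarized replicate 5. At 30 min 2 rose and 4 fell, and the signed response was higher at 2 h in 8 and lower in 1. Fhl2, a LIM-domain cofactor, was at 8.94, 8.96 and 8.87 in controls and at 10.21, 10.09 and 10.05 in depolarized cultures. Its difference was 1.20 (SE 0.07) at 2 h, against -0.48 at 30 min. Srf itself rose by 0.64 (SE 0.07) and Tagln2, an actin-bundling protein gene, by 0.68 (SE 0.08). Svil, which encodes the actin-binding protein supervillin, was the 1 member that fell, by 1.0 (SE 0.08), at 1 of its probe sets, and the other differed by -0.06 (adjusted p = 0.596).

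Feedback inhibitors of MAP kinase signalling rose. Of 12 measured genes of this list 9 rose and 0 fell (median 0.54), with the same count without replicate 5. Dusp6, a phosphatase that acts on ERK, was at 9.00, 8.99 and 8.81 in controls and at 11.04, 10.35 and 10.79 in depolarized cultures at its lowest-p probe set. Dusp5, a nuclear ERK phosphatase, rose by 1.41 (SE 0.13), Errfi1, an inhibitor of EGF receptors, by 1.07 (SE 0.13), and Spry1, a Sprouty inhibitor of receptor tyrosine kinases, by 1.31 (SE 0.13). Controls of Dusp6 (-1.13) and Spry1 (-1.57) were lower at 2 h than at 30 min. The depolarized arrays of Spry1 were not all above the 30 min controls, while those of Dusp6, at that probe set, lay above all 6. Among other immediate-early signalling genes 14 of 20 rose and 1 fell (median 0.44). The counts were 14 and 2 without replicate 5, and 12 and 1 without control replicate 4. Cebpb, a C/EBP transcription factor, was at 7.10, 7.24 and 6.88 in controls and at 8.86, 8.60 and 8.65 after depolarization, a rise of 1.63 (SE 0.09) that followed 0.12 at 30 min (adjusted p = 0.43). Myc, a growth-promoting factor, rose by 1.49 (SE 0.15), and Ier3, a stress-inducible survival gene, by 1.5 (SE 0.13).

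Regulators of G-protein and calcium-channel signalling changed in both directions. Of 16 RGS and RGK genes 7 rose and 2 fell (median 0.15), where 9.51% and 15.7% of all probe sets did. In this list 7 rose and 1 fell without replicate 5, without depolarized replicate 4 or without control replicate 4 or 5. Rem2, a GTPase that inhibits voltage-gated calcium channels, was at 8.75, 9.11 and 8.84 in controls and at 10.00, 10.31 and 10.22 in depolarized cultures. Rgs4, which shortens Gq and Gi signals, was at 9.75, 9.89 and 9.74 against 10.76, 10.89 and 10.89. In both genes replicate 5 was at the top of its group or level with it. Rgs2 rose by 0.74 (SE 0.08), while Rgs7, a neuronal member of the family, fell by 0.76 (SE 0.08).

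Genes for secreted and synaptic products also rose. Vgf, the precursor of neuroendocrine peptides whose cAMP response element is printed above, was at 8.73, 8.79 and 8.51 in controls and at 10.72, 10.43 and 11 in depolarized cultures. Nptx1, a pentraxin that clusters AMPA receptors, was at 6.54, 6.51 and 6.53 against 8.56, 8.07 and 8.80. Scg2, which encodes the granin secretogranin II, rose by 1.42 (SE 0.10), and Arc, an immediate-early regulator of AMPA receptor traffic, by 1.49 (SE 0.20). Together 5 of 15 activity-induced synaptic effectors rose and 0 fell (median 0.12). In 11 of these 15 genes the controls were higher at 2 h than at 30 min, as for Vgf (1.0) and Scg2 (2.22), whose depolarized arrays lay above all 6 controls. Of 15 neuropeptide precursors 5 rose and 0 fell (median 0.13), or 4 and 0 without replicate 5, with galanin (Gal) at 0.41 (SE 0.08), the tachykinin precursor Tac1 at 0.38 (SE 0.08) and the enkephalin precursor Penk at 0.58 (SE 0.13).

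Bdnf, the neurotrophin most closely tied to activity, was at 6.22, 6.35 and 6.27 in controls and at 7.04, 7.05 and 7.05 in depolarized cultures. The depolarized arrays were nearly equal, and the rise of 0.77 (SE 0.06, adjusted p = 7.3e-07 by limma) was absent from a dimmer probe set (0.10, adjusted p = 0.302). Among 18 neurotrophic factors and receptors 2 rose and 2 fell (median -0.01). The share that rose is near the 9.51% of all probe sets, and the share that fell is below their 15.7%. Ngfr, the p75 neurotrophin receptor, fell by 0.69 (SE 0.16). Without 1 of the 6 arrays the count that rose ranged from 1 (without depolarized replicate 4 or 6) to 3 (without control replicate 4 or depolarized replicate 5), and the count that fell from 1 (without control replicate 6 or depolarized replicate 4) to 3. Ligands of the EGF and TGF-beta families and cytokines rose in 10 of 33 and fell in 0 (median 0.09). Hbegf, a membrane-bound EGF-family ligand, was at 6.74, 6.80 and 6.84 in controls and at 8.93, 7.57 and 8.64 in depolarized cultures, with replicate 5 low. Areg, another ligand of the EGF receptor, rose by 1.16 (SE 0.14), Bmp2 by 0.84 (SE 0.10) and the chemokine gene Cxcl10 by 0.84 (SE 0.10).

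Of 28 genes of the integrated stress response, which ATF4 drives when translation is restrained, 15 rose and 1 fell (median 0.22). Without replicate 5 the counts were 13 and 1. They were 11 and 2 without control replicate 6, and 10 and 2 without depolarized replicate 6. Slc7a1, an importer of cationic amino acids, was at 9.5, 9.32 and 9.43 in controls and at 10.55, 10.36 and 10.58 in depolarized cultures, a rise of 1.08 (SE 0.08) after 0.14 at 30 min. Chac1, a glutathione-degrading enzyme gene, rose by 0.73 (SE 0.10), Cebpg by 0.58 (SE 0.08) and Vldlr, a lipoprotein receptor gene, by 0.72 (SE 0.12). Chaperones of the endoplasmic reticulum did not move as a group (median -0.01), and 1 fell without control replicate 6. With all arrays 0 of 21 fell, where 15.7% of all probe sets did, and 2 rose, near the share of 9.51%. The 2 were Herpud1 (0.54, SE 0.08) and Edem1 (0.74, SE 0.11), both of which act in the disposal of misfolded proteins. Of 19 cytosolic heat shock genes 7 rose and 2 fell (median 0.12), where 9.51% and 15.7% of all probe sets did. Bag3, an HSP70 co-chaperone gene, was at 7.77, 7.82 and 7.44 in controls and at 9.24, 8.61 and 9.11 after depolarization. The small heat shock genes Hspb8 (0.61, SE 0.08) and Hspb1 (0.41, SE 0.07) and the inducible HSP70 gene Hspa1a (0.43, SE 0.08) rose less. The 2 falls were 1 when control replicate 4 or any depolarized array was left out, and 0 without control replicate 5.

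Of 13 growth arrest genes and p53 targets 4 rose and 2 fell, where 9.51% and 15.7% of all probe sets did. Cdkn1a, the cell cycle inhibitor p21, was among the rises, at 9.43, 9.49 and 9.35 in controls and at 10.33, 10.06 and 10.28 in depolarized cultures (0.80, SE 0.09). The falls were 1 without any single array other than control replicate 6. In the BCL2 and caspase list 1 of 24 rose and 4 fell, and the share that fell is near the 15.7% of all probe sets. The rises were 2 without control replicate 6. With all arrays the rise was that of Mcl1, a survival factor of short half-life, by 0.76 (SE 0.09), and Casp2, an initiator caspase gene, fell by 0.46 (SE 0.06). Those 4 falls were 2 without control replicate 4 or 5 or depolarized replicate 4 or 6. Histone genes rose in 4 of 7 and fell in 0 (median 0.25), and these were H1f2, H1f4 (0.67, SE 0.09), H1f10 (0.58, SE 0.09) and H2az1 (0.25, SE 0.07), the last lost without control replicate 5 or depolarized replicate 4 (highest adjusted p = 0.0621). Circadian clock genes, several of which answer to CREB, rose in 7 of 14 and fell in 1 (median 0.25). Without depolarized replicate 4 or 6 the rises were 5. Bhlhe40, a repressor of the clock, was at 5.97, 6.06 and 6.08 in controls and at 8.11, 7.08 and 7.92 in depolarized cultures, again with replicate 5 low. Per2 rose by 0.64 (SE 0.08) and Bmal1 by 0.40 (SE 0.08), whereas Dbp, an output gene of the clock, fell by 0.36 (SE 0.07).

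Metabolic lists were mixed. Sterol biosynthesis genes, of which 11 of 21 rose and 3 fell at 30 min (median 0.40), rose in 6 and fell in 5 at 2 h (median -0.01). The signed response was lower at 2 h than at 30 min in 11 of the 21, where 6.79% of all probe sets had a lower response, and higher in 0. Cyp51, the lanosterol demethylase gene, and Insig1, a brake on sterol synthesis, still differed by 0.90 (SE 0.08) and 0.78 (SE 0.09), and squalene synthase (Fdft1) was down by 0.68 (-0.68, SE 0.09). The 5 falls were 3 without control replicate 4 or 5 or depolarized replicate 4 or 5. Of 30 glycolysis and hypoxia genes 7 rose and 2 fell (median 0.02), where 9.51% and 15.7% of all probe sets did. Pfkfb3, whose enzyme makes the activator of phosphofructokinase, was 0.49 higher (SE 0.06) at 2 h and 0.50 lower (-0.50) at 30 min, Hk2, a hexokinase gene, rose by 0.55 (SE 0.07) and Egln3, an oxygen-sensing hydroxylase gene, by 0.59 (SE 0.07). The 2 falls were 1 without control replicate 4 or 6 or depolarized replicate 4, and 3 without depolarized replicate 5 or 6. Of 54 oxidative phosphorylation subunits 0 rose and 10 fell (median -0.11), a share close to the 15.7% of all probe sets that fell. The clearest was Ndufs1, a core subunit of complex I, with a fall of 0.49 (SE 0.06). That count ranged from 5 without control replicate 5 or depolarized replicate 4 and 6 without control replicate 4 to 14 without control replicate 6, and was 6 after median centring. In ribosomal protein genes 0 of 29 passed in limma, and 0 at an unadjusted p of 0.05, and in proteasome genes 2 of 33 fell and 0 rose, with 1 fall without control replicate 4 and 1 rise without control replicate 6.

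The falls were smaller than the rises and their 20 largest encode proteins of unrelated kinds. Gjb2, which encodes the gap junction protein connexin 26, was at 7.88, 8.37 and 8.24 in controls and at 6.66, 6.88 and 7.04 in depolarized cultures. The fall of 1.30 (SE 0.15, adjusted p = 2.18e-05 by limma) left every depolarized array below every control of either collection. Ipp, a kelch-repeat protein gene, was at 8.58, 8.68 and 8.56 in controls and at 7.31, 7.44 and 7.51 after depolarization. Acss1, a mitochondrial acetyl-CoA synthetase gene, fell by 0.93 (SE 0.12), Lyrm4, which serves iron-sulfur cluster assembly, by 0.87 (SE 0.08) and Dhrs3, a retinaldehyde reductase gene, by 0.85 (SE 0.11). Stk3, a kinase of the Hippo pathway, fell by 0.86 (SE 0.10), and the centrosomal gene Cep250 and mitotic kinesin gene Kif15 fell by 0.85 (SE 0.07) and 0.83 (SE 0.10). Depolarized replicate 4 was the lowest array in 15 of the 20 falls and replicate 5 the highest in 10. Vamp5, Jakmip1 and Zmynd8, with falls of 0.83, 0.82 and 0.79, each had a second probe set near 0 (0.03, 0.05 and -0.03).

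In 7 of these 20 falls the depolarized arrays were not all below the controls collected at 30 min. In each of the 7 the controls were higher at 2 h than at 30 min. The depolarized arrays of Scn2a, Jakmip1, B4galnt1 and Kif26b lay above the 30 min controls, and those of Ankrd44, Prr36 and Ssbp2 overlapped them. Scn2a, which encodes a voltage-gated sodium channel of neurons, was at 7.20, 7.39 and 7.21 in controls and at 6.19, 6.35 and 6.32 in depolarized cultures, a fall of 0.98 (SE 0.07, adjusted p = 2.17e-07 by limma). The 2 h controls of Scn2a were 1.39 above the 30 min controls, and its response at 30 min was -0.04. Controls were likewise higher at 2 h for Jakmip1 (by 1.67), B4galnt1 (1.55), which makes complex gangliosides, Kif26b (1.24), Ankrd44 (1.15), Ssbp2 (1.10) and Prr36 (0.85). Prr36 and Ssbp2 had nevertheless fallen at 30 min as well. Other Kif26b probe sets differed at 2 h by -0.51, which passed, and by -0.15 and -0.13, which did not. Among all 2492 falls, 1032 (41.4%) had controls that were higher at 2 h than at 30 min, where 18.1% of all probe sets did, and 1357 (54.5%) lay below all 6 controls. In each of the 7 genes named above the depolarized arrays were also higher at 2 h than at 30 min, as for Jakmip1 at 7.27, 7.45 and 7.54 against 6.39, 6.49 and 6.35.

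Several groups of neuronal genes also had controls that were higher at 2 h. Of 25 voltage-gated sodium and calcium channel genes 0 rose and 5 fell (median -0.11), where 9.51% and 15.7% of all probe sets did. The falls included Scn3a (0.47, SE 0.08, with controls 1.80 higher at 2 h) and Cacna1b (0.31, SE 0.08). The 5 falls were 3 without depolarized replicate 4, and 1 gene rose without control replicate 5. In 14 of the 25 the controls were higher at 2 h than at 30 min, where 18.1% of all probe sets were. The depolarized arrays of Scn3a and Cacna1b lay above those 30 min controls. Of 29 synaptic vesicle and SNARE genes 2 rose and 6 fell, where 9.51% and 15.7% of all probe sets did, with Bsn, an active zone scaffold, at -0.44 (SE 0.07) and Cplx1, a clamp on vesicle fusion, at -0.39 (SE 0.07). Of 33 calcium pump, calmodulin and calmodulin kinase genes 1 rose and 8 fell. Atp2b2, a plasma membrane calcium pump gene, was at 8.30, 8.4 and 8.17 in controls and at 7.40, 7.66 and 7.65 after depolarization, while its relative Atp2b1 was the 1 that rose (0.34, SE 0.06). The 8 falls were 3 without control replicate 5 and 4 without depolarized replicate 4, 2 rose without control replicate 6, and after median centring 4 rose and 5 fell. Of 22 glutamate receptor genes 0 rose and 4 fell, where 15.7% of all probe sets fell. That count of falls was 0 without control replicate 4 or 5 or depolarized replicate 4, 2 without depolarized replicate 5, and 1 after median centring.

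Of 27 GABA, glycine and acetylcholine receptor genes 1 rose and 3 fell, both below the shares of all probe sets (9.51% and 15.7%). The falls were led by Gabrb2, a GABA-A receptor subunit gene that fell by 0.74 (SE 0.10), with controls 1.72 higher at 2 h. Its depolarized arrays lay above the 30 min controls. The count that rose was 2 without control replicate 6 and 0 without any of the other 5 arrays. Potassium channel genes rose in 5 of 42 and fell in 2 (median 0.04), with rises near the 9.51% and falls below the 15.7% of all probe sets. The lowest p was that of Kcns3 (0.64, SE 0.10). The rises were 2 without control replicate 4 or 5 and 3 without depolarized replicate 4 or 5. The 2 falls were 1 without control replicate 4 or 5. Pan-neuronal markers were higher at 2 h than at 30 min in the controls in 12 of 13, where 18.1% of all probe sets were. With treatment at 2 h, 2 of the 13 rose and 0 fell (median -0.06), namely the neurofilament genes Nefm (0.39, SE 0.07) and Nefl (0.43, SE 0.11), and Nefl did not pass without control replicate 5. There was 1 fall without control replicate 5 or 6 or depolarized replicate 5. At 2 h the mean over the markers was 11.35 to 11.36 in controls and 11.32 to 11.38 in depolarized arrays. The part of these markers in the falls was not tested.

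More cell cycle genes fell than rose, where 15.7% of all probe sets fell. Of 20 genes for G1 cyclins and DNA replication 9 fell (median -0.18), and 2, the D-type cyclin genes Ccnd2 (0.58, SE 0.10) and Ccnd1 (0.39, SE 0.08, chosen after its value was seen), rose. Mcm2, a subunit of the replicative helicase, was at 9.32, 9.20 and 9.18 in controls and at 8.95, 8.75 and 8.80 in depolarized cultures. Prim1, a primase gene, fell by 0.36 (SE 0.07) and Cdk4 by 0.31 (SE 0.06). The 9 falls were 5 without control replicate 5 or depolarized replicate 5, and 6 without control replicate 4 or after median centring. Medians over this list were -0.05, -0.24 and -0.14 in depolarized replicates 4, 5 and 6. Of 20 mitosis genes 0 rose and 6 fell (median -0.16), with Kif20a, a kinesin of cytokinesis, at -0.51 (SE 0.09) and Plk1 at -0.36 (SE 0.06). The 6 falls were 4 without control replicate 4 or 5 or depolarized replicate 5, and 5 after median centring. Mitosis medians were uneven, at -0.01, -0.31 and -0.14 in depolarized replicates 4, 5 and 6. Those of control replicates 4, 5 and 6, each against the other controls, were 0.11, 0.10 and -0.16. The controls were lower at 2 h than at 30 min in 17 of the 20 replication genes and in 18 of the 20 mitosis genes, so here treatment and collection time pointed the same way. The mean over 8 progenitor markers was 10.65 to 10.75 in controls and 10.57 to 10.64 in depolarized arrays. Such a lack of overlap was also seen in 37.5% of all single probe sets. The part of these markers in the falls was not tested. The median difference of those markers was 0.01, with 1 that rose and 2 that fell, so mean and median differ in sign.

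Of 17 measured ID, HES and Notch genes, 3 ID genes rose and 3 HES genes fell (median -0.00), where 9.51% and 15.7% of all probe sets did. The share that fell is near that of all probe sets. Id1, an inhibitor of basic helix-loop-helix factors, was at 9.94, 10.25 and 9.98 in controls and at 10.85, 10.86 and 11.01 in depolarized cultures (0.85, SE 0.10). Hes5, a Notch target that keeps progenitors undifferentiated, was at 8.48, 8.22 and 8.51 against 7.55, 7.78 and 7.63, a fall of 0.75 (SE 0.09). Hes6 fell by 0.48 (SE 0.07) and Hes1 by 0.45 (SE 0.07). Over the ID, HES and Notch list of 17 no other gene passed, the other rises being Id2 and Id3 (0.45 and 0.34, chosen after their values were seen). Shh, the ligand whose protein had been supplied and withdrawn, rose by 0.65 (SE 0.13), and Boc, a coreceptor gene, fell by 0.45 (SE 0.10). Pdgfra, a receptor of oligodendrocyte precursors, was at 10.47, 10.49 and 10.38 in controls and at 9.64, 9.76 and 9.68 in depolarized cultures, a fall of 0.75 (SE 0.09). Of the 9 measured oligodendrocyte lineage markers 2 fell and 1 rose, where 15.7% and 9.51% of all probe sets did. Their median difference was 0.04, or -0.01 after quantile normalization. Without control replicate 5 there was 1 fall, and the rise was lost without control replicate 5 or depolarized replicate 4 or 5.

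Of the genes that define dopamine neurons, Th, Slc6a3 and Ddc did not pass at 2 h. Th, the rate-limiting enzyme of dopamine synthesis, was at 7.77, 8.10 and 8.0 in controls and at 7.62, 8.22 and 7.76 in depolarized cultures, and the groups overlapped (-0.09, SE 0.13, adjusted p = 0.68 by limma). The dopamine transporter gene Slc6a3 differed by -0.22 (SE 0.13, adjusted p = 0.239) and Ddc, the decarboxylase gene, by 0.01 (SE 0.12, adjusted p = 0.975). Of 12 dopaminergic markers 4 rose and 1 fell, where 9.51% and 15.7% of all probe sets did. Gch1, which makes the cofactor of tyrosine hydroxylase, rose by 0.44 (SE 0.08) and the floor plate factor gene Foxa2 by 0.37 (SE 0.08). The other calls were weak, as Slc18a2, the vesicular monoamine transporter gene, passed at 0.31 (adjusted p = 0.0349) but not without replicate 5 (adjusted p = 0.164) nor at its other probe set (0.00). The 4 rises were 2 without control replicate 4 or depolarized replicate 5, and the 1 fall was 0 without control replicate 4 or 5 or depolarized replicate 4. The astrocyte marker Gfap differed by 0.15 (SE 0.07, adjusted p = 0.151). Of the 10 microglial markers 0 passed in limma, and 0 at an unadjusted p of 0.05 (1 rose without control replicate 6), of 11 astrocyte markers 1 rose (Glul, 0.49, SE 0.08) and 1 fell, the fall being lost without control replicate 5 or any depolarized array, and mean levels of every marker list other than that of progenitors overlapped between the groups. The table has no detection calls, so the absence of a cell type was not read from it.

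Comparison with the earlier collection, which shares no arrays with this one, showed both shared and separate genes. Of the 1509 rises at 2 h, 601 (39.8%, and 34.9% of the 1720 rises at 30 min) were also higher at 30 min, 112 had been lower then, and 796 were not called. Of the 2492 falls, 994 (39.9%, and 47.7% of the 2085 falls at 30 min) were also lower at 30 min, 106 had been higher and 1392 were not called. The responses differed between collections in 2055 probe sets (13% of those tested). Among the rises at 2 h, the signed response was higher at 2 h than at 30 min in 437 and lower in 73. Among the falls it was lower at 2 h in 510 and higher in 101.

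Several genes of the first wave had smaller responses at 2 h. Atf3, a stress-induced partner of JUN, differed by 2.91 at 30 min and by 1.04 at 2 h, where depolarized arrays were at 7.87, 7.34 and 8.03 against controls at 6.73, 6.66 and 6.74. The response difference was -1.88 (adjusted p = 2.3e-05 by limma). Klf6, a Kruppel-like factor, went from 2.79 to 0.96, Junb from 2.47 to 1.03, Zfp36, which destabilizes AU-rich mRNAs, from 2.35 to 1.16, and the phosphatase gene Dusp1 from 1.71 to 0.39. Adm, the precursor of the vasodilator adrenomedullin, went from 2.31 to 0.90, where its controls were lower at 2 h than at 30 min (-0.60) and treated cultures at 7.77, 7.15 and 7.43 were not all above the earlier controls at 7.12, 7.24 and 7.10.

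Other genes changed direction between the collections. Slc16a6, a monocarboxylate transporter family gene, was lower by 1.27 at 30 min (-1.27) and higher by 0.80 at 2 h, with depolarized arrays at 9.60, 9.32 and 9.62 and controls at 8.80, 8.77 and 8.59. Metrnl, a secreted meteorin-like factor gene, went from -0.84 to 0.76 and Tmem100 from -1.32 to 0.29, although the last call was lost without control replicate 5 or 6 or depolarized replicate 6 (highest adjusted p = 0.0999). Depolarized arrays of Metrnl overlapped the controls collected at 30 min, and those of Tmem100 lay below them. In the opposite direction Ccng2, an atypical cyclin gene, went from 1.06 to -0.64, with depolarized arrays at 8.66, 8.68 and 8.65 and controls at 9.42, 9.33 and 9.15. Hes1 went from 1.07 to -0.45, so that of the HES genes above it was the one that had first risen. Pnrc1, a nuclear receptor coregulator gene, went from 0.87 to -0.57 at a probe set whose partner differed by -0.00 at 2 h.

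**Figure D4:**
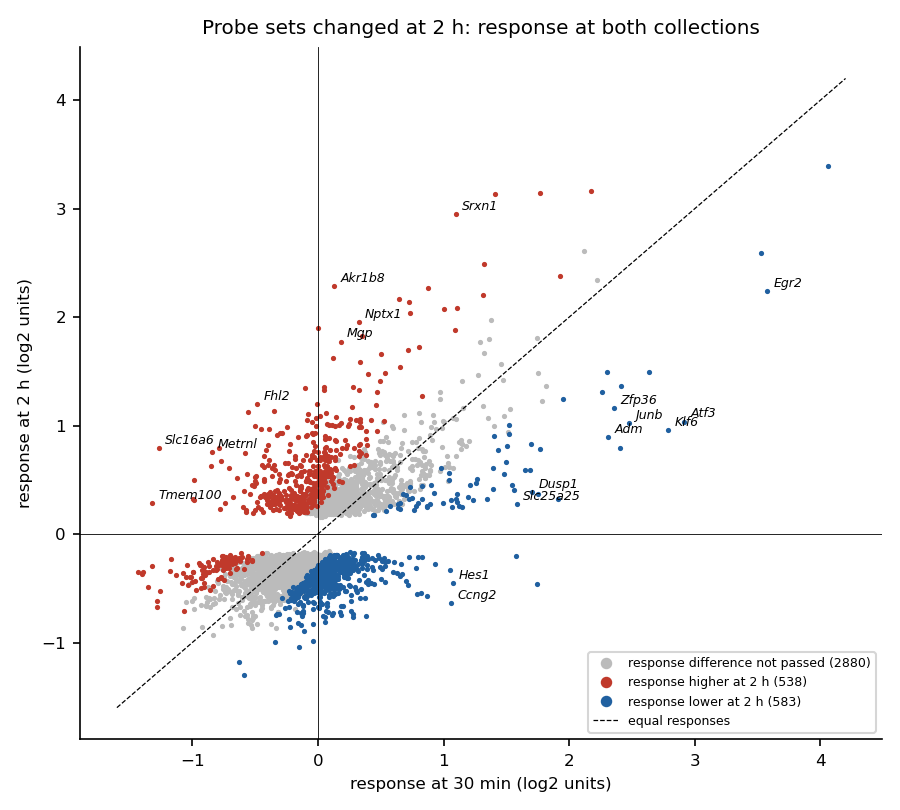
Difference between depolarized and control cultures at 2 h (log2 units) against the same difference at 30 min (log2 units) for the 4001 probe sets that passed at 2 h. Red and blue points had a higher or lower response at 2 h than at 30 min (adjusted p under 0.05), grey points did not pass that test, and the dashed line marks equal responses. Srxn1, Akr1b8 and Nptx1 stand well above the line, Egr2, Atf3 and Klf6 below it, and Slc16a6 and Ccng2 in the quadrants of opposite sign.

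Depolarized replicate 5 had lower values than the other depolarized arrays for genes induced early. Among the 121 probe sets that were at least 1 log2 unit higher at 30 min, a choice that used none of the 2 h arrays, replicate 5 was the lowest of the 3 depolarized arrays in 100, against 10 for replicate 4 and 11 for replicate 6. Over all 15866 probe sets it was the lowest in 5488. The median difference from the 2 h controls over those 121 was 0.84 for replicate 4, 0.57 for replicate 5 and 0.76 for replicate 6. For the 2085 probe sets lower at 30 min the medians were nearly equal, at -0.21, -0.20 and -0.18. Median differences by list had the same order for the EGR, NR4A and KLF genes (1.04, 0.70 and 0.88 for replicates 4, 5 and 6), and replicate 5 was also lowest for the AP-1 genes (0.60, 0.39 and 0.68), while MAP kinase inhibitors were nearly level (0.54, 0.52 and 0.54). Not every gene followed it, as Fos, Fosb, Rem2, Rgs4, Hmox1 and Bdnf show above, although Bdnf was only 0.33 higher at 30 min. Replicate 5 was also the lowest depolarized array in Akr1b8 and Nptx1, which did not pass at 30 min. The cause of its lower values was not tested. Without replicate 5, 3509 probe sets passed, 1460 of them higher and 2049 lower.

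**Figure D5:**
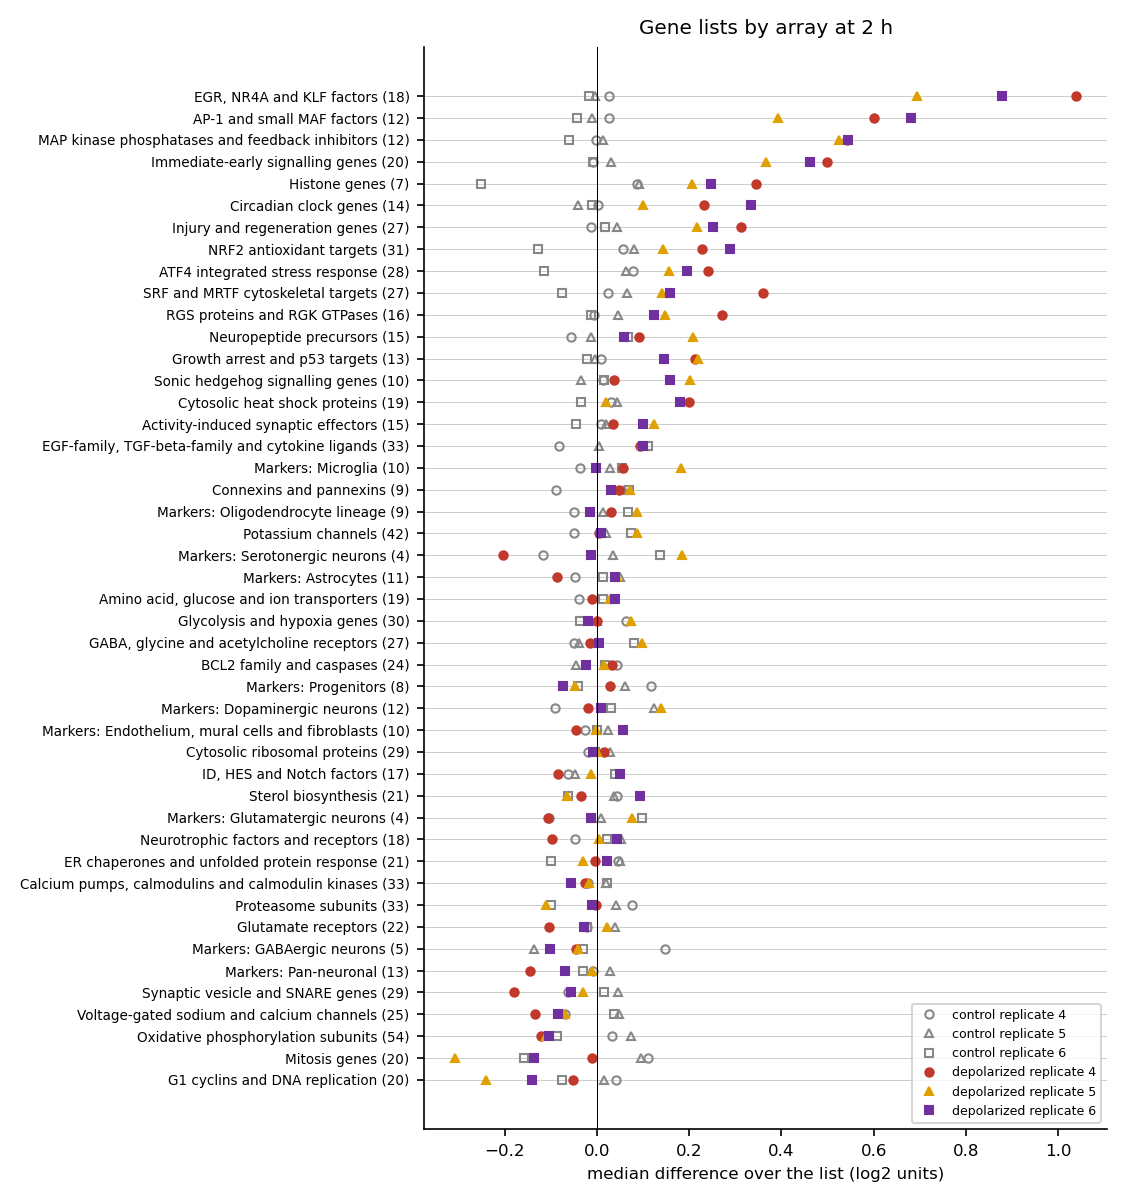
Median difference (log2 units) over each gene list for every array collected at 2 h, with the number of measured genes in brackets. Filled symbols are depolarized arrays against the mean of the 3 controls, and open grey symbols are each control against the mean of the other controls. Replicate 5 (triangles) lies at 0.70 for the EGR, NR4A and KLF list, below replicates 4 and 6, and the controls stay near 0 in that list.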

How the data were processed

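Expression was measured on single-colour Affymetrix rat arrays, 1 per sample. The deposited series matrix holds log2 values made by the authors with RMA, which subtracts background, normalizes by quantiles and summarizes each probe set, per the submitters' processing notes (version not given). Values lie between 4.41 and 14.58. The number of arrays, 3 per group, limits the precision.

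The 57 array control probe sets were left out, and limma 3.58.1 (R 4.3.3) was fitted to all 12 arrays and 4 groups, with eBayes and Benjamini-Hochberg adjustment over 15866 probe sets at 0.05. The difference between responses was a contrast of the same model. The fit was tested on simulated data. Gene names came from the platform annotation: 12783 probe sets have 1 symbol, 312 several and 2771 none. List members were read at their brightest probe set and ranked genes at that of lowest p.

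Named genes are the 20 largest rises and falls without overlap between groups, up to 4 members of lowest p per list, the 8 largest response differences of each kind, and always Arc, Fos, Homer1, Bdnf, Gfap, Ddc, Th, Slc18a2 and Slc6a3. Members and lists were chosen with earlier results of these data known. Deviations of same-numbered arrays from their group means correlated between -0.32 and 0.24, so replicate numbers were not taken to pair samples. Alternatives were other scalings, filters, tests and thresholds, and leaving out each array.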

Additional observations from a re-analysis of the deposited data

Results flagged for a closer look

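The 2 h and 30 min responses were compared gene by gene, as the response at 2 h minus that at 30 min in log2 units. The difference passed limma's test in 2055 of 15866 probe sets, and the named genes among them follow, with no explanation weighed.

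Among the 20 largest rises at 2 h, the response was larger at 2 h for Akr1b8 (2.16), Srxn1 (1.85), Nptx1 (1.63), Mgp (1.59), Prss23 (1.48), H1f2 (1.41), Lgals3 (1.39), Fosb (1.37), Vgf (1.31), Tnfrsf12a (0.99), Tes (0.98), Ccn2 (0.97), Homer1 (0.89) and Hmox1 (0.79). It was smaller for Fos (-0.67), Egr1 (-0.93) and Egr2 (-1.34). The calls for Egr1 and Egr2 were each lost when single arrays were left out (highest adjusted p = 0.066 and 0.072 by limma).

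Among the 20 largest falls, the response was lower at 2 h for Scn2a (-0.94), Ankrd44 (-0.89), B4galnt1 (-0.87), Kif26b (-0.82), Ttc28 (-0.79), Gjb2 (-0.72), Jakmip1 (-0.66), Svil (-0.65), Stk3 (-0.64), Ipp (-0.56) and Zmynd8 (-0.55). The call for Gjb2 was lost when single arrays were left out (highest adjusted p = 0.11 by limma).

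Other genes higher at 2 h had a signed response above that at 30 min, namely Slc16a6 (2.06), Fhl2 (1.68), Tmem100 (1.61), Metrnl (1.6) and Bdnf (0.44). Of these, Slc16a6, Fhl2, Tmem100 and Metrnl had been lower than controls at 30 min. Smaller responses at 2 h were those of Atf3 (-1.88), Klf6 (-1.83), Junb (-1.45), Adm (-1.41), Dusp1 (-1.32), Slc25a25 (-1.31), Zfp36 (-1.19) and Arc (-1.14). Genes lower at 2 h with the most negative difference were Ccng2 (-1.7), Hes1 (-1.53), Pnrc1 (-1.44), Ip6k2 (-1.38), Cnot4 (-1.37), Taf5 (-1.34), Ppp4r3b (-1.21) and Rsbn1 (-1.18). A second, brighter Ip6k2 probe set did not differ from controls at 2 h (0.00, adjusted p = 0.995 by limma). A second Rsbn1 probe set did not pass at 2 h (-0.16). At 2 h the calls against controls were lost for Slc25a25 and Rsbn1 without control replicate 6 or depolarized replicate 4, and for Ppp4r3b without control replicate 4 or depolarized replicate 5.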

How the results depend on the processing

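Against 4001 probe sets called at 2 h (1509 higher, 2492 lower), the counts ranged from 2833 to 4226 when single arrays were left out, with 1064 to 1594 higher and 1769 to 2632 lower. The lowest count came without depolarized replicate 4, and 2780 of those 2833 were also called with all arrays. For the difference between the responses at 2 h and 30 min, 2055 with all arrays, the count ranged from 1624 to 2081. Without the dimmest 50% of probe sets 970 were higher, with fewer probe sets tested. At an adjusted p of 0.01, 2410 passed, 934 of them higher and 1476 lower. With a change of at least 1 log2 unit required as well as an adjusted p of 0.05, 106 passed, 103 higher and 3 lower. The other settings tried kept these counts within 1.5 times of those reported, from 3255 with an ordinary equal-variance test to 4351 with array weights. The share of calls that were higher was 37.7% as reported, 51.4% after median centring and 43.4% after quantile normalization. With the replicate number as a block 3617 were called, and 1816 response differences. No probe set called both ways took opposite signs. Of 67 probe sets of the ranked and always named genes, 35 lost a call under at least 1 of 23 settings, 62 losses in all, and none reversed. The settings include the requirement of at least 1 log2 unit, which any call of smaller size fails by definition. The count of 35 therefore does not measure how stable the calls are. The 3 arrays per group limit how small a difference could be detected.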
